A study of Mus musculus with 48 samples.

Results

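Alas2, Slc4a1, Epb42, Rhag, Klf1 and Gata1, genes of red blood cell formation, were followed in the livers of weanling mice, as 6 listed genes among 19938 genes that had a probe set with a single symbol. Each was read by 1 such probe set (10602372 for Alas2, 10391649 for Slc4a1, 10486664 for Epb42, 10445192 for Rhag, 10573457 for Klf1 and 10603417 for Gata1), so choosing the brightest probe set of a gene left no choice open. The median liver lobe of male or female F1 mice aged 3 weeks was profiled on 48 arrays, 8 for each combination of 3 genotype labels and 2 sire diets. Sires were fed a low protein diet or a control diet from 3 to 12 weeks of age. The groups were WT_LPD and WT_CD (wild-type offspring of low-protein and of control-diet sires), ATF7HET_LPD and ATF7HET_CD (labelled ATF7+/-), and ATF7WT_LPD and ATF7WT_CD (labelled ATF7+/+). ATF7 is a chromatin-bound transcription factor whose activity responds to stress signals. The labels name no strain, give no sex per animal and leave the distinction between ATF7+/+ and wild-type mice undefined.

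The fetal liver is the main site of red cell production before birth, and in mice that production moves to bone marrow and spleen around birth, so that the liver of a weanling is largely a hepatocyte organ with residual blood-forming cells and circulating blood. Developing erythroblasts take up iron, make haem and globin, build the band 3 membrane complex and finally lose the nucleus. Reticulocytes, the youngest circulating red cells, still carry messenger RNA. Red cell production in turn draws on iron whose release is held back by hepcidin, a hormone made by hepatocytes.

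In order of role, Alas2 encodes the erythroid form of aminolevulinate synthase, the first and rate-setting enzyme of haem synthesis in red cell precursors. Slc4a1 encodes band 3, the anion exchanger of the red cell membrane, Epb42 encodes protein 4.2, which binds band 3 to the membrane skeleton, and Rhag encodes the Rh-associated glycoprotein of the same membrane. Gata1 and Klf1 are the erythroid transcription factors: GATA1 binds sites with the core letters GATA and KLF1 binds CACC boxes, and both are known to activate haem and membrane genes.

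Promoter windows are shown because Alas2, Epb42 and Rhag varied together with Slc4a1 over the samples, and because Klf1, shown beside them, had a correlation with Slc4a1 near 0. Windows of 250 bases before to 50 after a start site, from RefSeq on GRCm38.p6, were matched for 5 of the 6 genes. That site is the outer end of the gene's annotated span in Alas2, Epb42 and Klf1, and lies 50 bases inside it in Rhag and 8753 bases inside it in Gata1. The letters GATAA, or TTATC on the other strand, are in capitals.
Alas2, chrX:150547167-150547466, plus strand: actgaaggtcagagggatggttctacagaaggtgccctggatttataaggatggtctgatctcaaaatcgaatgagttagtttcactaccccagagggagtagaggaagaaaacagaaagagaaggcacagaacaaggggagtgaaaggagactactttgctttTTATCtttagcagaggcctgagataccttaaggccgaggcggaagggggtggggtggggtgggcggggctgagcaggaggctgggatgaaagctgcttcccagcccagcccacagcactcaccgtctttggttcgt
Epb42, chr2:121036828-121037127, minus strand: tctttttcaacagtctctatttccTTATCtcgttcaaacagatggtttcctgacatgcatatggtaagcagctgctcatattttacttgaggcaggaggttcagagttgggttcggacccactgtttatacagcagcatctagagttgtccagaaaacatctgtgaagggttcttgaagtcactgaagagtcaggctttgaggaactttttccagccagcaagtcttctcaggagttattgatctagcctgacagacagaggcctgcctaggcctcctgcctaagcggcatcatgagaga
Rhag, chr17:40810899-40811198, plus strand: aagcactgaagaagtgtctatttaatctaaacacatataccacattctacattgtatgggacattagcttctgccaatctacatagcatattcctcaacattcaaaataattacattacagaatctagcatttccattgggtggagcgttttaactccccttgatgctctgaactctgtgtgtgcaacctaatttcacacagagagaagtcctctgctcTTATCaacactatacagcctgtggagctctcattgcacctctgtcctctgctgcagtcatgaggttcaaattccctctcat
Klf1, chr8:84901732-84902031, plus strand: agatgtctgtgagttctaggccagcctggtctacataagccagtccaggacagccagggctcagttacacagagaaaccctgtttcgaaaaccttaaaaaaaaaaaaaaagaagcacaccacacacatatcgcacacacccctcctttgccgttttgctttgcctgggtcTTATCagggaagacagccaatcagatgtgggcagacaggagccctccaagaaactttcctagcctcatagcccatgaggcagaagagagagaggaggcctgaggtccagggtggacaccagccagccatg
GATAA was found on the strand opposite the gene in each of these 4 windows, and not in that of Gata1. It began 86 bases before that site in Alas2, 226 in Epb42, 31 in Rhag and 80 in Klf1. Of 32851 promoter windows of the same length, 25.4% held it on either strand. The CACC-box letters CCNCNCCC, or GGGNGNGG on the other strand, were found in the windows of Alas2 (4 matches, some overlapping each other) and Gata1 (3 matches), and 49.5% of all windows held them. A match of letters is a description of the window and was not set against any binding data.

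Array medians lay between 5.89 and 6.12 on the log2 scale. WT_CD replicates 4 and 5 were near-identical, as were ATF7WT_CD replicates 7 and 8: the spread of their difference over variable genes was 1.45 and 1.32 times that over stable genes, where other pairs gave 2.25 to 6.33. Each such pair counted as 1 sample, which left 46. Unannotated probe sets divided the arrays into 2 sets that the labels do not name, called A (18 arrays, 3 of every group) and B (30 arrays, 5 of every group). The Y-linked genes Eif2s3y and Kdm5d were clearly detected on 32 arrays and low on the remaining 16. Atf7 itself was lower in ATF7+/- than in ATF7+/+ livers (log2 difference -0.37 ± 0.06 SE, adjusted p = 0.00184). Against wild-type livers its difference in ATF7+/- livers was -0.20 ± 0.06 (adjusted p = 0.318). P-values measure the spread between these samples; litters and sires are not given.

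Several samples stood apart. In Rhag the widest gap between neighbouring samples ran from 4.62 to 5.13, with 4 samples of array set B above it: WT_CD replicate 3, ATF7HET_LPD replicate 8 and ATF7HET_CD replicates 3 and 7. These samples had Slc4a1 levels of 8.62, 8.36, 7.89 and 8.98, above the highest of the other 42 samples (7.60). They also had Gata1 levels of 5.66 to 5.86, in the upper range of the other samples (5.18 to 5.81). Because they were picked out on a gene described here, results without them are descriptions beside those with them.

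Alas2 varied by 2.06 log2 units over the samples, from 7.39 to 9.45. Its lowest, median and highest values were 8.07, 8.65 and 9.45 in WT_LPD livers, against 7.44, 7.685 and 9.07 in WT_CD livers. They were 7.71, 8.41 and 8.84 in ATF7HET_LPD livers, against 8.03, 8.44 and 9.05 in ATF7HET_CD livers. They were 7.93, 8.315 and 8.63 in ATF7WT_LPD livers, against 7.39, 8.09 and 9.12 in ATF7WT_CD livers. By median, WT_LPD was highest and WT_CD lowest, and the ranges of neighbouring groups in that order overlapped.

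Slc4a1 had the widest spread of the 6 genes, from 5.67 to 8.98, and its standard deviation over samples (0.70) was larger than that of 99.2% of genes. Its lowest, median and highest values were 6.67, 7.255 and 7.56 in WT_LPD livers, against 5.67, 6.15 and 8.62 in WT_CD livers. They were 5.92, 6.855 and 8.36 in ATF7HET_LPD livers, against 6.54, 6.93 and 8.98 in ATF7HET_CD livers. They were 6.39, 6.445 and 6.82 in ATF7WT_LPD livers, against 5.99, 6.39 and 7.60 in ATF7WT_CD livers. The 8 ATF7WT_LPD samples lay close together (SD 0.15), while the ATF7WT_CD samples split into 3 at 7.33 to 7.60 and 4 at 5.99 to 6.39.

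Epb42 and Rhag had low signals, with mean log2 values of 5.02 and 4.19 under the 40th percentile of all probe sets (5.46), so no filter on level was applied and both were tested. Epb42 ran from 4.87 through a median of 5.08 to 5.53 in WT_LPD livers, against 4.51, 4.69 and 5.89 in WT_CD livers. It ran from 4.83 through 5.15 to 5.59 in ATF7HET_LPD livers, against 4.68, 4.905 and 5.91 in ATF7HET_CD livers. It ran from 4.58 through 4.905 to 5.05 in ATF7WT_LPD livers, against 4.705, 5.0 and 5.38 in ATF7WT_CD livers. In all 6 groups the ranges of Epb42 overlapped. Rhag had a lowest, median and highest value of 3.60, 4.26 and 4.40 in WT_LPD livers, against 3.85, 3.98 and 5.52 in WT_CD livers. Its group medians lay between 3.98 (WT_CD) and 4.26 (WT_LPD), and outside the 4 samples above the gap it lay between 3.60 and 4.62.

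The regulators differed in spread. The standard deviation of Klf1 over samples (0.30) was larger than that of 84% of genes and near that of Epb42 (0.31). Klf1 lay between 5.51 and 6.71, with group medians from 6.10 (ATF7WT_CD) to 6.30 (WT_CD). It ran from 5.51 through 6.235 to 6.69 in WT_LPD livers, against 5.97, 6.30 and 6.71 in WT_CD livers. Its level went with the array set, at 5.92 ± 0.31 (SD, n = 18) in set A and 6.30 ± 0.17 (n = 28) in set B. Gata1 lay between 5.18 and 5.86, and its standard deviation of 0.16 exceeded that of only 25.2% of genes. It ran from 5.18 through 5.62 to 5.69 in WT_LPD livers, against 5.33, 5.56 and 5.86 in WT_CD livers. Group medians of Gata1 ran from 5.45 (ATF7WT_CD) to 5.63 (ATF7WT_LPD).

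**Figure D1:**
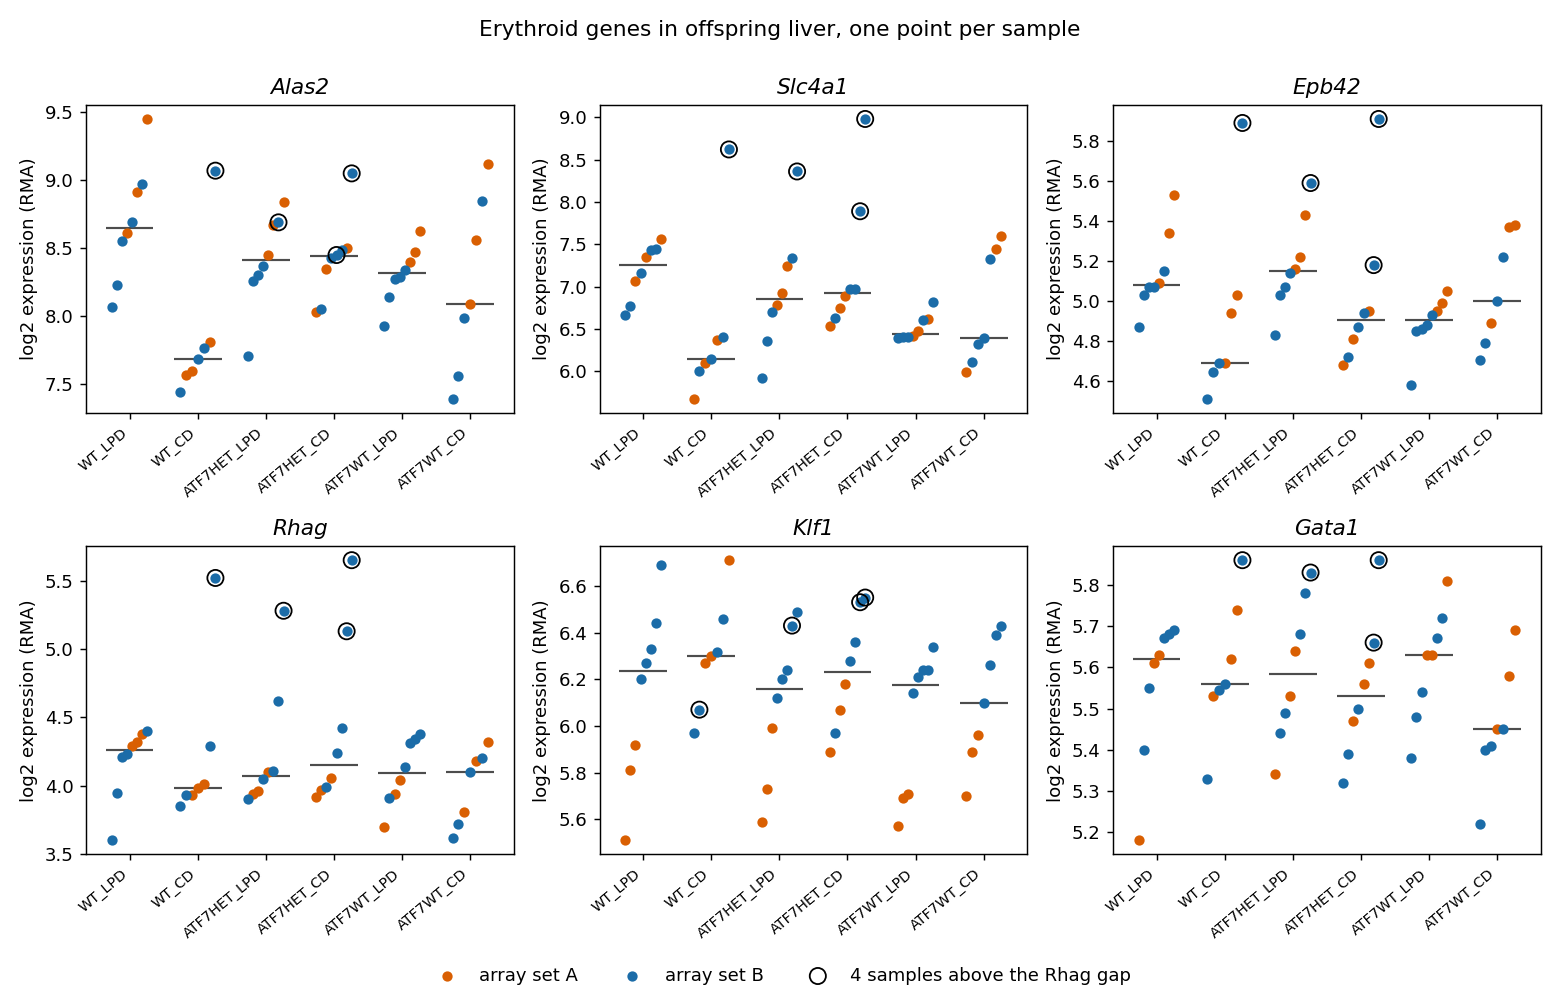
Levels of the 6 erythroid genes (log2 expression from RMA, vertical axes) in each sample by group, with group medians as lines, colours for the 2 array sets and rings around the 4 samples above the gap in Rhag. In Alas2 and Slc4a1 the WT_LPD samples lie above every WT_CD sample except the ringed one. In Klf1 the mean of set A (5.92) is lower than that of set B (6.30). WT_CD goes the other way (6.43 in set A, 6.20 in set B).

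In wild-type offspring the diet of the sire was compared in WT_LPD (n = 8) and WT_CD (n = 7) livers. Alas2 was higher in WT_LPD: it averaged 8.685 ± 0.44 in WT_LPD and 7.85 ± 0.55 in WT_CD livers (SD), a log2 difference of 0.84 ± 0.22 (SE), or 1.78-fold (95% interval 1.32 to 2.41; limma, adjusted p = 0.0252). All 8 WT_LPD samples lay above the WT_CD median, and the WT_CD sample above the gap in Rhag, replicate 3 at 9.07, overlapped them. Of the 6 genes 1 passed, Alas2, beside 2.05% of all genes tested in either direction and 1.71% in the upward one. It did not pass without WT_CD replicate 2, 6, 7 or 8 or without WT_LPD replicate 1 or 4 (log2 difference from 0.73 to 0.83, adjusted p from 0.0504 to 0.0711), nor on wild-type samples alone (adjusted p = 0.1105, beside 0.527% of genes). When replicate numbers were blocked within the labels, the difference was 0.83 (adjusted p = 0.0603).

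The membrane genes divided. Slc4a1 averaged 7.18 ± 0.33 in WT_LPD and 6.47 ± 0.98 in WT_CD livers, a log2 difference of 0.71 ± 0.33 that did not pass (95% interval 0.04 to 1.38, adjusted p = 0.355). Epb42 differed by 0.23 ± 0.15 (adjusted p = 0.598), and all 8 WT_LPD samples lay above the WT_CD median in both genes. Rhag differed by -0.04 ± 0.22, with an interval from -0.49 to 0.40. The regulators Klf1 (-0.15 ± 0.15) and Gata1 (-0.05 ± 0.09) did not pass either. The 6 genes had a median difference of 0.09, beside -0.0007 over all genes.

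In the fit over both array sets, the call of Slc4a1 turned on 1 sample. Without WT_CD replicate 3 alone, the difference of Slc4a1 was 1.07 (adjusted p = 0.0383). Without all 4 samples above the gap, 3 genes passed: Alas2 at 1.04 (adjusted p = 0.00149), Slc4a1 at 1.07 (adjusted p = 0.00171) and Epb42 at 0.39 (adjusted p = 0.0306), beside 2.2% of all genes. WT_CD replicate 3 was the highest WT_CD sample in all 3 genes, so leaving it out raised these differences by construction. These 3 calls are therefore descriptions only. WT_LPD and the 6 remaining WT_CD samples then did not overlap in Alas2 (8.07 to 9.45 in WT_LPD, 7.44 to 7.81 in WT_CD) or in Slc4a1 (6.67 to 7.56 in WT_LPD, 5.67 to 6.40 in WT_CD). That followed from leaving out WT_CD replicate 3, the only WT_CD sample that reached the WT_LPD range in either gene. The share of all genes without overlap is not given here. Rhag, Klf1 and Gata1 did not pass without the 4 samples.

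The array sets gave different sizes. In set A alone, Alas2 was 8.61, 8.91 and 9.45 in WT_LPD livers, against 7.57, 7.60 and 7.81 in WT_CD livers, and Slc4a1 was 7.07, 7.35 and 7.56 in WT_LPD, against 5.67, 6.10 and 6.37 in WT_CD livers. Alas2 (1.33, adjusted p = 0.000663), Slc4a1 (1.28, adjusted p = 0.0075) and, downward, Klf1 (-0.68, adjusted p = 0.0038) passed there, beside 9.74% of all genes. Klf1 was 5.51, 5.81 and 5.92 in WT_LPD, against 6.27, 6.30 and 6.71 in WT_CD livers of set A. In set B alone none of the 6 passed (limma; Alas2 0.51, adjusted p = 0.397; Slc4a1 0.30; Klf1 0.18), beside 2.18% of all genes. In set B without WT_CD replicate 3 and the other 3 samples above the gap, Alas2 (0.87, adjusted p = 0.0413), Slc4a1 (0.91, adjusted p = 0.049) and Epb42 (0.42, adjusted p = 0.0239) passed, beside 4.04% of genes. Only WT_CD replicates 1, 2 and the averaged 4 and 5 then stood for WT_CD. Leaving out the highest WT_CD sample raised these differences by construction, so they are no separate test of those in set A. The diet difference of Klf1 itself differed between the sets (set A minus set B, -0.86 ± 0.18, adjusted p = 0.00458, beside 5% of genes), whereas that of Alas2 (0.82 ± 0.40, adjusted p = 0.276) and of Slc4a1 (0.98 ± 0.66, adjusted p = 0.47) did not pass.

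In ATF7+/- offspring the same comparison gave no passing gene among the 6, and 0% of all genes passed (limma; 0 of the 6 genes had an unadjusted p under 0.05). Alas2 averaged 8.41 ± 0.35 in ATF7HET_LPD and 8.42 ± 0.32 in ATF7HET_CD livers (n = 8 each), a log2 difference of -0.01 with a 95% interval from -0.43 to 0.41. Slc4a1 averaged 6.95 ± 0.73 in ATF7HET_LPD and 7.20 ± 0.83 in ATF7HET_CD livers (difference -0.25 ± 0.32). The other 4 genes lay between -0.18 (Rhag) and 0.18 (Epb42). Both groups held samples above the gap, 1 in ATF7HET_LPD and 2 in ATF7HET_CD.

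In ATF7+/+ offspring, ATF7WT_LPD (n = 8) against ATF7WT_CD (n = 7) also gave none, beside 0% of all genes (limma; 0 of the 6 with an unadjusted p under 0.05). Alas2 averaged 8.31 ± 0.21 in ATF7WT_LPD and 8.22 ± 0.65 in ATF7WT_CD livers, a difference of 0.09 with an interval from -0.35 to 0.52. Slc4a1 differed by -0.23 ± 0.33, Epb42 by -0.16 ± 0.15, Rhag by 0.10 ± 0.22, Klf1 by -0.09 ± 0.15 and Gata1 by 0.15 ± 0.09. In ATF7WT_CD the spread of Alas2 and Slc4a1 came from replicates 1, 2 and 6, which were high in both genes.

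Differences between the diet comparisons were tested as interactions. The diet difference of Alas2 in wild-type minus that in ATF7+/- livers was 0.84 ± 0.30 (unadjusted p = 0.00714, adjusted p = 0.311), and minus that in ATF7+/+ livers 0.75 ± 0.30 (adjusted p = 0.638). The matching values of Slc4a1 were 0.96 ± 0.46 (adjusted p = 0.625) and 0.94 ± 0.47 (adjusted p = 0.782). None of the 6 passed either interaction (limma; 2 and 1 with an unadjusted p under 0.05), beside 0.361% and 0.00502% of genes, so a difference in the response of these genes between labels was not shown. Averaged over the labels, low protein minus control was 0.30 ± 0.12 for Alas2 (adjusted p = 0.452) and between -0.12 and 0.08 for the other 5, with none passing (limma; 1 with an unadjusted p under 0.05) beside 0.431% of genes. ATF7+/- against ATF7+/+ gave 0 of the 6 for the interaction (limma; 0 with an unadjusted p under 0.05), beside 0% of genes. In array set A alone Alas2 (0.53) and Klf1 (-0.38) passed in the mean over labels, beside 6.16% of genes. Alas2 (1.42) and Slc4a1 (1.79) passed there in the interaction with ATF7+/+, beside 1.93% of genes.

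Between genotype labels, averaged over diet, none of the 6 genes passed (limma; 0 with an unadjusted p under 0.05 in each). ATF7+/- minus ATF7+/+ was positive in all 6, largest in Slc4a1 (0.45 ± 0.23, adjusted p = 0.557) and Rhag (0.29 ± 0.15, adjusted p = 0.579), beside 0.0201% of genes passing. Without the 4 samples above the gap, 3 of which were ATF7+/-, the median over the 6 genes was 0.04, against 0.14 with them. ATF7+/- minus wild-type lay between -0.06 and 0.25, beside 0% of genes, and ATF7+/+ minus wild-type between -0.20 and -0.001, beside 0.01% of genes. In array set A alone Klf1 was lower in ATF7+/+ than in wild-type livers (-0.33, adjusted p = 0.0186), where 20.4% of genes passed.

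**Figure D2:**
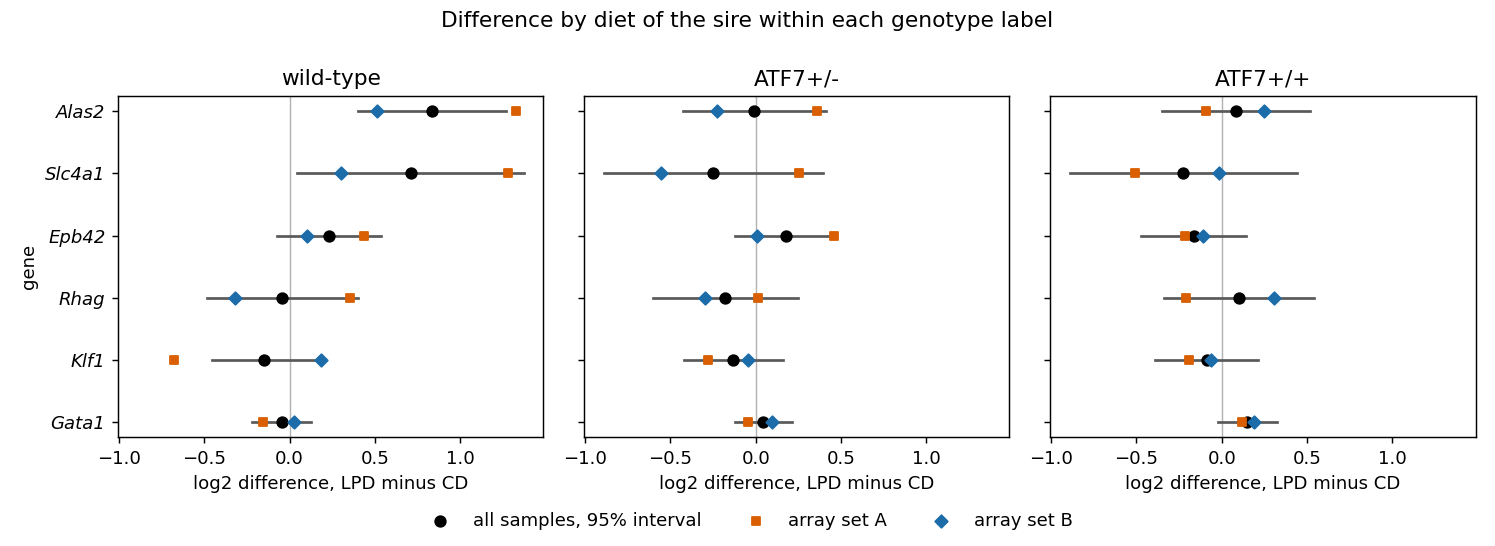
Log2 differences of the 6 genes between offspring of low-protein and control-diet sires (horizontal axis, LPD minus CD) within each genotype label. Black points show the fit on all samples with 95% intervals; squares and diamonds show array sets A and B. The interval of Alas2 in wild-type livers lies furthest above 0, and Klf1 has opposite signs in the sets there (-0.68 and 0.18).

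The haem and membrane genes varied together over the 46 samples, to different degrees. Alas2 gave r = 0.72 (rho = 0.73) with Epb42 and 0.49 (rho = 0.53) with Rhag, and Epb42 with Rhag gave 0.64 (rho = 0.38). The regulators had r with these genes between -0.35 and 0.44, so the upper end came near the weakest of those pairs. Slc4a1 correlated with Alas2 (Pearson r = 0.78, Spearman rho = 0.86), with Epb42 (r = 0.81, rho = 0.69) and with Rhag (r = 0.82, rho = 0.65). For these pairs of Slc4a1, permutation p was 1e-05 for r, the smallest that 100000 permutations give, and at most 2e-05 for rho. After Benjamini-Hochberg adjustment over the 21 pairs computed it was 4.2e-05 for r. Without the 2 samples farthest from the median of Slc4a1 the coefficients with Epb42 and Rhag were 0.70 and 0.70, and for Alas2 and Slc4a1, leaving out the 2 farthest in Alas2, 0.79. Alas2 and Slc4a1 gave r = 0.88 within set A and 0.82 within set B. In bulk liver, more cells of a type and more RNA per cell cannot be told apart.

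Array set A holds none of the samples above the gap, and there r with Rhag was 0.70 for Slc4a1 and 0.57 for Epb42. Without the 4 samples r with Rhag was 0.55 (rho = 0.54) for Slc4a1 and 0.21 for Epb42 (0.64 with them), and that of Slc4a1 with Alas2 was 0.84. Leaving out samples by their own high Rhag narrows its range, which by construction can lower any r with Rhag. Klf1 had r between -0.35 (Alas2; rho = -0.32, permutation p = 0.0158 and 0.0333) and 0.24 (Rhag; rho = 0.16, permutation p = 0.109 and 0.274) with the other 5 genes. With Alas2 its r was -0.69 within set A and 0.15 within set B. Gata1 reached r = 0.44 with Rhag (rho = 0.25, permutation p = 0.00201 and 0.0883) and 0.34 with Slc4a1 (rho = 0.22, permutation p = 0.0221 and 0.149); without the 4 samples these were 0.05 and -0.04. The sign of Gata1 with Slc4a1 differed between array sets, at r = -0.32 within set A and 0.59 within set B.

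Hamp, which encodes hepcidin, ran opposite to Alas2 and Slc4a1. Its lowest, median and highest values were 4.18, 8.11 and 11.84 in WT_LPD livers, against 10.94, 12.68 and 12.81 in WT_CD livers. They were 10.41, 11.255 and 11.94 in ATF7HET_LPD livers, against 6.03, 11.325 and 12.52 in ATF7HET_CD livers. The lowest WT_LPD value belonged to replicate 1, which had the highest Alas2 (9.45). In ATF7WT_LPD livers Hamp was 8.64, 11.865 and 12.13. In ATF7WT_CD livers, replicates 1, 2 and 6 had Hamp at 4.45, 5.30 and 7.65 and Alas2 at 9.12, 8.56 and 8.85. The other 4 had Hamp at 12.42 to 12.67 and Alas2 at 7.39 to 8.09. Over all samples Hamp correlated with Alas2 (r = -0.70, rho = -0.81, permutation p = 1e-05 for each) and with Slc4a1 (r = -0.57, rho = -0.82, permutation p = 9e-05 and 1e-05). Samples were permuted across groups and array sets, so these p-values also take in differences between groups. Without the 2 samples farthest in Alas2 or in Slc4a1, r was -0.65 and -0.69. The r of Hamp with Alas2 was -0.74 within set A and -0.68 within set B. Hamp2 is close enough in sequence that the Hamp probe set may pick up its transcript too.

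**Figure D3:**
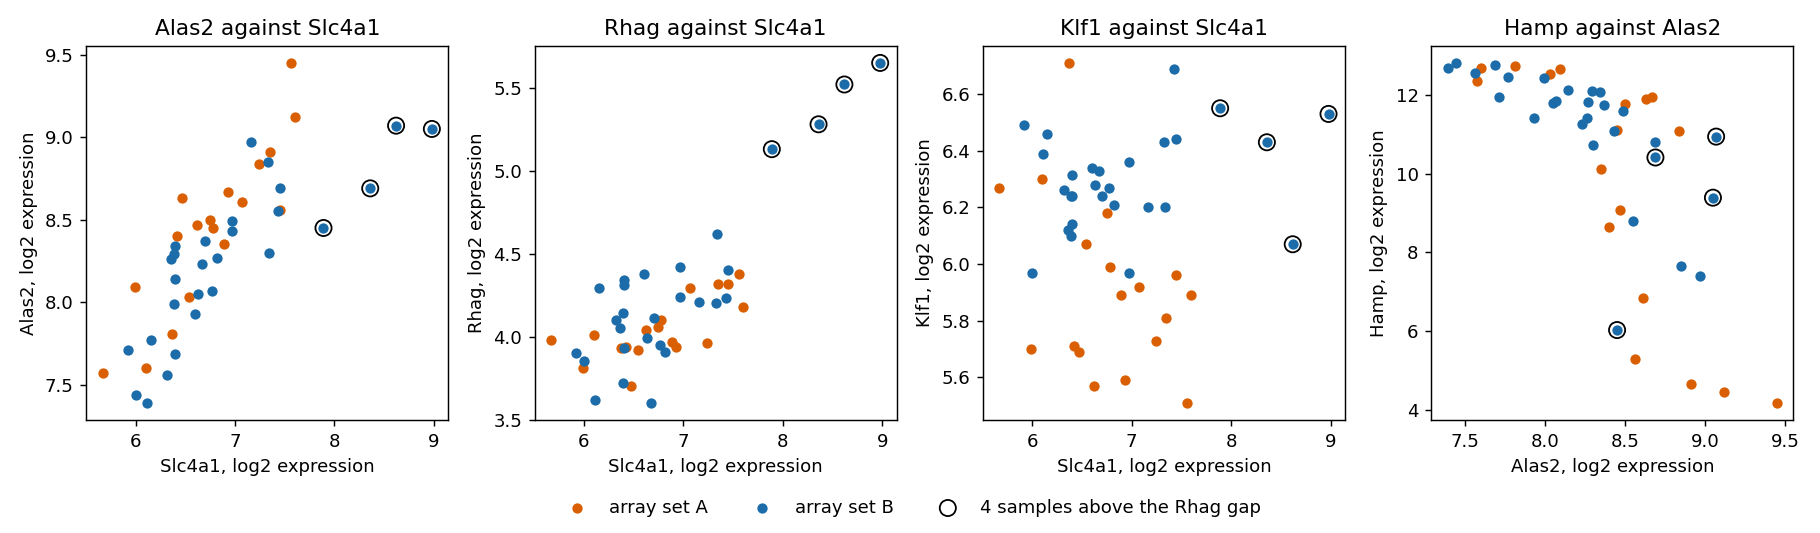
Pairs of genes per sample (log2 expression on both axes; colours for array sets, rings for the 4 samples above the gap in Rhag). Alas2 and Rhag climb with Slc4a1, and Hamp drops from above 12 to near 4 as Alas2 increases. Klf1, with r = 0.05 against Slc4a1, is lower on average in array set A than in set B, though not in WT_CD samples.

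The genes most like the mean of the 6 were sought among 13538 other genes at or above the 40th percentile. The closest were Cd24a, the heat-stable antigen of maturing blood cells (r = 0.94), Ppbp, a platelet chemokine (r = 0.86), Ctse, the protease cathepsin E (r = 0.84), Ube2o, a ubiquitin-conjugating enzyme that remodels the proteome of reticulocytes (r = 0.82), and Tent5c, a poly(A) polymerase (r = 0.82). They were followed by 1300017J02Rik (0.78), the VEGF receptor Flt1 (0.75), Cdr2 (0.75), Bpgm, which makes the bisphosphoglycerate of red cells (0.75), and Sod3 (0.74). Without the 4 samples above the gap, Cd24a was at r = 0.87 and the other 9 between 0.57 and 0.76. The lowest were Smad7, a feedback inhibitor of BMP signalling (r = -0.72), Golga2 (-0.69), Plin3 (-0.64), Id2 (-0.63) and Gse1 (-0.62). The mean of the 6 genes weighs those with a wide spread, such as Slc4a1, most.

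Markers of several other blood cell types, not of all, were also high in the 4 samples above the gap. Mean levels of 7 B cell markers were 5.62 to 6.16 in these samples, against 5.09 to 5.64 in the other set B samples, with all 7 genes higher on average. The 9 granulocyte precursor markers stood at 5.57 to 5.92 in the 4 samples and 4.98 to 5.57 in the others (9 of 9 higher). The 6 megakaryocyte and platelet markers stood at 6.745 to 7.03 in the 4 samples and 5.985 to 6.59 in the others (6 of 6). The 7 markers of Kupffer cells, the resident macrophages of liver, stood at 8.88 to 9.19 in the 4 samples and 8.33 to 9.11 in the others (7 of 7). The 4 T cell markers stood at 5.49 to 5.69 in the 4 samples and 5.32 to 5.73 in the others (3 of 4 higher), and 4 stem and progenitor markers at 6.14 to 6.22 in the 4 samples and 5.99 to 6.28 in the others (2 of 4). A further 13 erythroid membrane genes stood at 6.23 to 6.41 in the 4 samples and 5.76 to 6.15 in the others (12 of 13 higher), and 12 genes of haem synthesis and erythroid iron at 8.80 to 8.99 in the 4 samples and 8.63 to 9.03 in the others (6 of 12). The 14 erythroid regulators and enzymes stood at 7.05 to 7.18 and 6.62 to 7.01 (13 of 14). Hbb-y, Hbb-bh1, Hba-x and Hemgn stood at 5.165 to 5.295 and 4.79 to 5.285 (4 of 4). The 5 mast cell and eosinophil markers stood at 4.50 to 4.59 and 4.21 to 4.63 (5 of 5). Of the fetal liver genes 2 of 4 were higher, and of the liver iron genes 10 of 19. The 23 proliferation genes stood at 5.83 to 6.65 in the 4 samples and 5.60 to 7.77 in the others (0 of 23 higher), and the 6 hepatocyte markers at 12.89 to 12.98 in the 4 samples and 12.84 to 13.06 in the others (4 of 6). The share of all genes higher in the 4 samples is not given here, so these counts describe the lists alone. The part of other cell types in the erythroid values of these samples was not tested, and log values have no 0 to mark a gene as absent.

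Other genes of the erythroid programme were counted in the same wild-type diet comparison, where 2.05% of all genes passed in either direction and 1.71% upward. Of 13 measured genes of the erythroid membrane and skeleton, 0 passed (limma; 2 with an unadjusted p under 0.05) and the median was 0.02; the spectrin gene Sptb was at 0.19 ± 0.08 and the Rh antigen gene Rhd at 0.19 ± 0.14. Of 12 genes of haem synthesis and erythroid iron 1 rose, Urod, the uroporphyrinogen decarboxylase (0.28 ± 0.07, adjusted p = 0.0181). Leaving out WT_CD replicate 7 (0.24, adjusted p = 0.0594) or 8 (0.25, adjusted p = 0.0746) ended its call. Abcb10, a mitochondrial transporter of erythroid cells, was at 0.21 ± 0.07 and Alas1, the housekeeping aminolevulinate synthase that is abundant in hepatocytes, at -0.54 ± 0.24; neither passed.

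Of 14 erythroid regulators and enzymes 1 rose, the carbonic anhydrase gene Car2 (0.67 ± 0.13, adjusted p = 0.00155; 0.47 and adjusted p = 0.115 in set B alone), which other liver cells also express. Nfe2, a globin gene regulator, was at 0.41 ± 0.15 (adjusted p = 0.147). Of the globin list 4 genes had a probe set of their own, the embryonic Hbb-y, Hbb-bh1 and Hba-x and the regulator Hemgn, and 0 passed (0 with an unadjusted p under 0.05). The adult globin genes and Ahsp had no probe set with a single symbol and were not used here. Among 19 liver iron genes 0 rose and 2 fell, beside 2.05% of all genes passing in either direction and 1.71% upward. The 2 were Hp, which encodes haptoglobin, the plasma scavenger of haemoglobin (-0.34 ± 0.07, adjusted p = 0.00275), and Hamp (-4.16 ± 1.08, adjusted p = 0.0272). Hamp did not pass without WT_CD replicate 8 or WT_LPD replicate 1, 2, 4 or 6 (-4.10 to -3.58, adjusted p from 0.0506 to 0.077), nor in set B alone (-2.21, adjusted p = 0.276). Without the samples above the gap 4 liver iron genes fell, where 2.2% of all genes passed in either direction. Hamp2 was at -2.40 (adjusted p = 0.047) and the hepcidin inducer Bmp6 at -0.48 (adjusted p = 0.0221), beside Hp and Hamp. In ATF7+/- and ATF7+/+ livers Hamp differed by 0.76 ± 1.04 and 1.47 ± 1.08 and did not pass.

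Markers of the other cell types showed no passing genes in this comparison among 6 of megakaryocytes and platelets, 9 of granulocyte precursors, 7 of B cells and 7 of Kupffer cells, with medians between -0.04 and 0.07 (limma; 0 with an unadjusted p under 0.05). Ppbp, at 0.67 ± 0.41 (adjusted p = 0.55), was the largest of them, and without the samples above the gap it passed at 1.14 (adjusted p = 0.0221). The 6 hepatocyte markers had a median of -0.02. Of 4 genes of the fetal liver 1 rose, the glypican Gpc3 (1.23 ± 0.32, adjusted p = 0.0287), beside 1.71% of all genes upward. Its call was lost when the samples above the gap were left out (1.09, adjusted p = 0.077).

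**Figure D4:**
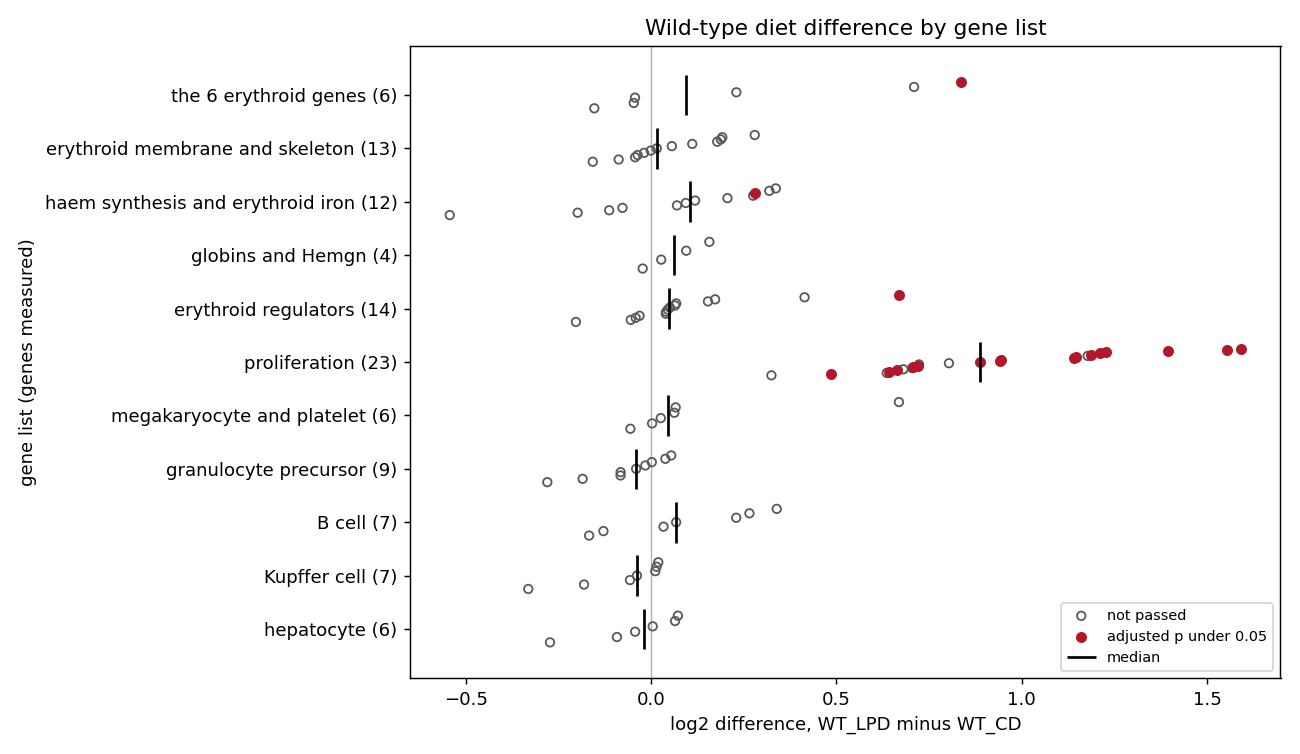
Log2 differences between WT_LPD and WT_CD livers (horizontal axis) for each measured gene of 11 lists, with filled points for genes that passed and a line at each list's median. In the proliferation list, with a median of 0.89, 16 of 23 genes pass (9 without the 4 samples above the gap in Rhag). Each of the other lists shown has 0 or 1 passing gene, and the erythroid lists centre between 0.02 and 0.11.

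The proliferation level, the mean log2 value of 23 cell cycle genes, was set against each erythroid gene. Its lowest, median and highest values were 6.47, 6.93 and 7.50 in WT_LPD livers, against 5.44, 5.83 and 7.26 in WT_CD livers, and 16 of the 23 genes passed in that comparison (median 0.89). Of all genes 2.05% passed there, and the list was chosen with earlier results of these data known. Without the samples above the gap, 9 of the 23 passed (median 0.85), beside 2.2% of all genes. With all samples, Mki67 differed by 1.55 ± 0.32 (adjusted p = 0.00292) in wild-type, by -0.34 ± 0.31 in ATF7+/- and by 0.16 ± 0.32 in ATF7+/+ livers. Each erythroid gene was fitted on this level within groups. The slope per log2 unit of proliferation level, beside group means, was -0.12 ± 0.15 for Alas2, -0.30 ± 0.23 for Slc4a1, -0.11 ± 0.11 for Epb42, -0.18 ± 0.15 for Rhag, -0.06 ± 0.11 for Klf1 and -0.07 ± 0.06 for Gata1. None passed (limma; 0 with an unadjusted p under 0.05), beside 4.59% of 19915 genes.

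Over all 46 samples, Pearson r with the proliferation level lay between -0.19 (Gata1) and 0.17 (Alas2), and Spearman rho between -0.16 and 0.20, with permutation p from 0.19 to 0.922 (at least 0.52 after Benjamini-Hochberg adjustment over the 6). Without the 2 samples farthest from the median level, ATF7WT_CD replicate 5 (7.77) and WT_CD replicate 8 (5.44), r lay between -0.15 and 0.28. Without the 4 samples above the gap in Rhag, r lay between -0.12 (Klf1) and 0.29 (Alas2, permutation p = 0.063). There rho of Alas2 was 0.33 (permutation p = 0.0337, adjusted over the 6 genes 0.202). The r of Slc4a1 was 0.24 there, against -0.01 over all samples. Within set A, Alas2 gave r = 0.60 (rho = 0.51; permutation p = 0.00884 for r and 0.0318 for rho, adjusted over the 6 genes 0.0265 and 0.092). Klf1 gave r = -0.71 (rho = -0.54; permutation p = 0.0011 and 0.022, adjusted 0.0066 and 0.092). In set B the same genes gave r = 0.03 and -0.04. With the proliferation level as a covariate, the wild-type diet difference of Alas2 was 0.95 (adjusted p = 0.0449).

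**Figure D5:**
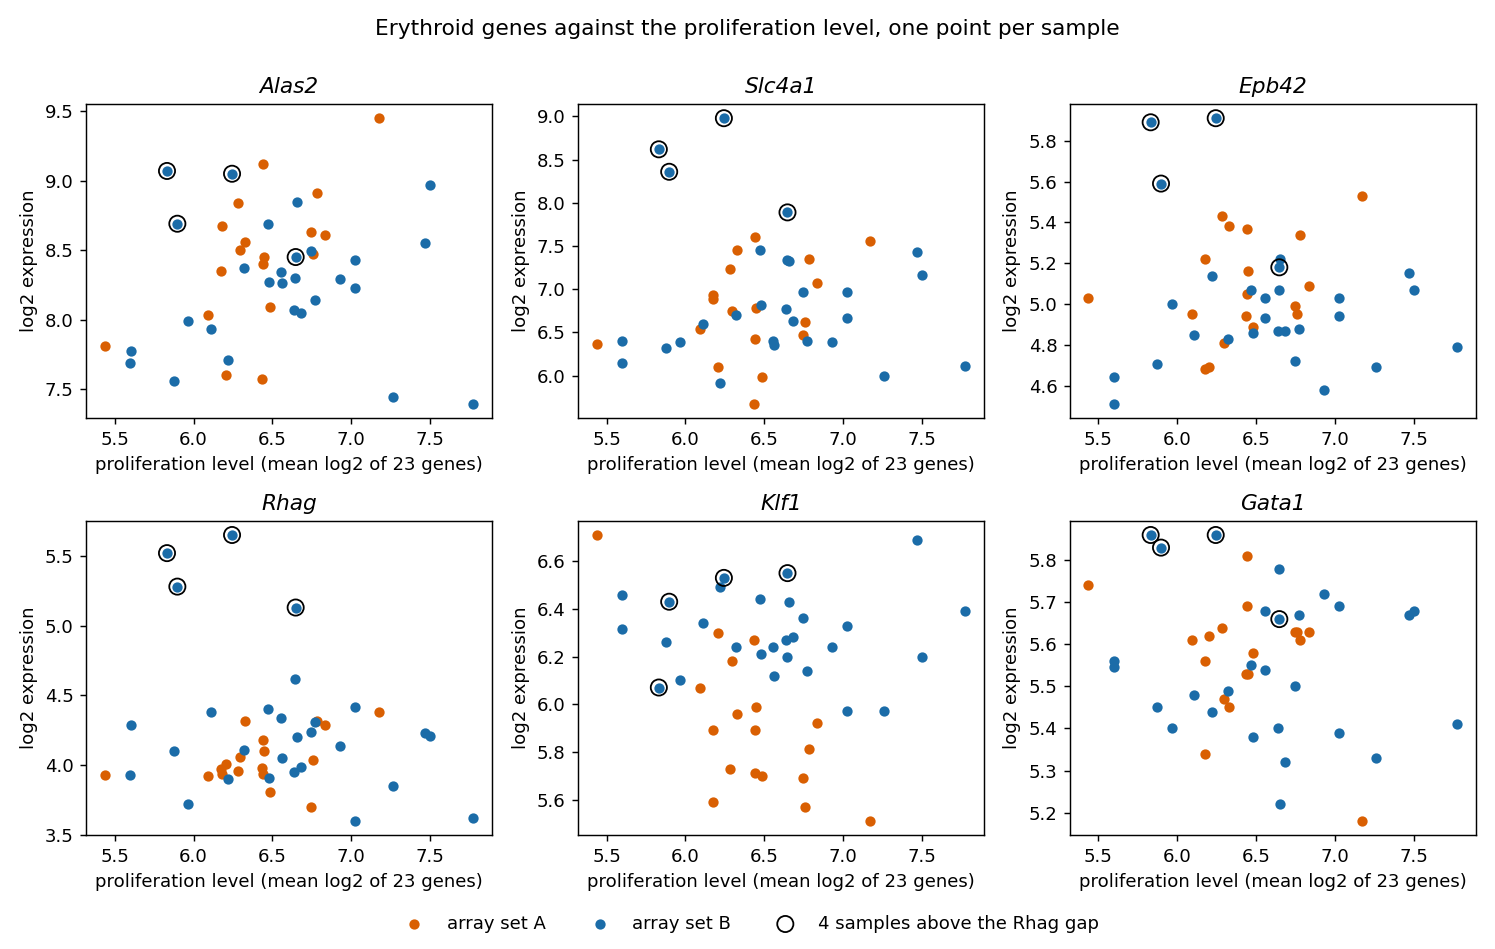
Levels of the 6 erythroid genes (vertical axes, log2 expression) against the proliferation level (horizontal axes, mean log2 value of 23 genes) in 46 samples, with colours for array sets and rings for the 4 samples above the gap in Rhag. Over all samples r lies between -0.19 and 0.17, and the ringed samples lie at its low to middle values.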

How the data were processed

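Each of 48 Affymetrix arrays received biotin-labelled cDNA from the liver of 1 mouse. The authors deposited log2 values for every probe set; the submitters' processing notes name Expression Console and RMA, while versions and the genome build are not given in the sources used here. They were used as deposited. Of 23410 annotated probe sets 21789 had 1 symbol; each gene took its probe set with the highest mean, with no filter on level. Near-identical array pairs were averaged, which left 46 samples. Array sets were split at the largest gap between arrays on principal component 1 of 5591 unannotated probe sets. Arrays have no depth per sample; their number limits the precision.

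Group means were fitted with limma 3.58.1 in R 4.3.3 (with the data.table package, 1.17.8), with 10 contrasts and, apart from these, a slope on the proliferation level; tests were two-sided with Benjamini-Hochberg adjustment over all genes and a threshold of 0.05. Correlations used 100000 permutations of samples, not restricted to groups (Python 3.11.15, numpy 2.4.6, scipy 1.17.1, pandas 2.3.3). Figures used matplotlib 3.10.9. Steps were tested on simulated data. The members and all gene lists were chosen with earlier results of these data known. Named genes were the 6 members, Atf7, Mki67, Hamp, up to 3 genes with the smallest p of a list and those passing where 5 or fewer did, and the 10 highest and 5 lowest correlates.

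Replicate numbers come from the labels. Same-numbered samples of the 2 diets had deviations correlated from 0.18 to 0.74 in ATF7+/- and 0.30 to 0.67 in ATF7+/+ livers, where every pair shares an array set, and from -0.16 to 0.38 within sets. In wild-type livers the 3 pairs that share a set gave 0.07 to 0.50 and the 4 pairs across sets -0.47 to -0.22. These values follow the array set, so replicate blocks are given as alternatives. Alternatives were the filter, quantile normalization, median centring, the mean of probe sets, a trended prior, array weights, only the groups compared, replicate blocks, Y-linked and proliferation covariates, array sets, all 48 arrays, and each sample left out. Leaving out the samples above the gap in Rhag and the test between array sets were added after seeing the data.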

Additional observations from a re-analysis of the deposited data

Results flagged for a closer look

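Of 42 sets of values (6 genes and the proliferation level in 6 groups) 8 held a sample far from the rest of its group by Dixon's ratio of gap to range. Chance gives about 1 in 20 for a single set. The sets share samples and several of the genes varied together, so the flags are not independent and 1 sample can give several. WT_CD replicate 3 stood above its group in 4 genes: Alas2 at 9.07 (next 7.81), Slc4a1 at 8.62 (next 6.40), Epb42 at 5.89 (next 5.03) and Rhag at 5.52 (next 4.29). Its Klf1, at 6.07, was the second lowest of its group. ATF7HET_CD replicate 7 stood above its group in Alas2 at 9.05 (next 8.50) and in Epb42 at 5.91 (next 5.18). Epb42 in ATF7WT_LPD replicate 4 was low, at 4.58 (next 4.85). The proliferation level of ATF7WT_CD replicate 5 was high, at 7.775 (next 6.65), and its Alas2, at 7.39, was the lowest of all samples.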

How the results depend on the processing

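Of 4200 recomputed values of the 6 genes, 4172 kept their call, 9 lost it, 19 gained it and 0 reversed a passing sign; 169 changed sign without passing either way. The number of the 6 genes that passed in the wild-type diet comparison was 1. It was 0 on the groups compared alone, 0 with the replicate block within each label (Alas2 0.83, adjusted p = 0.0603) and 0 in array set B alone. It was 3 in array set A alone, and 3 without the samples above the gap in Rhag, also with the array set as a block and in set B alone. Leaving out 1 sample gave 0 to 2. In the mean diet difference it was 2 against 0 in set A alone (Alas2 and Klf1), and 2 with the array-set block without those samples (Alas2 and Epb42). For wild-type against ATF7+/- as an interaction it was 1 against 0 with that block and without those samples. In that with ATF7+/+ it was 2 in set A alone (Alas2 and Slc4a1) and 2 with the block and without those samples (Epb42 and Slc4a1). In ATF7+/+ against wild-type it was 1 in set A alone (Klf1, -0.33), and for correlations with the proliferation level 2 in set A alone. The causes were not tested.

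Counts over all genes moved too. In the wild-type diet comparison 409 genes passed, against 105 on wild-type samples alone, 1073 with the array set as a block, 1941 in set A alone, and 195 to 526 with 1 sample left out. Over the settings other than single samples left out, the highest counts were in set A alone for each comparison: 1229 for the mean diet difference (86 in the reported fit, lowest 55) and 246 for the interaction of wild-type with ATF7+/- (72, lowest 34). They were 384 for that with ATF7+/+ (1), 4070 for ATF7+/+ against wild-type (2), 2883 for ATF7+/- against ATF7+/+ (4; 243 with the array set as a block) and 105 for ATF7+/- against wild-type (0). In the diet comparison they were 61 in ATF7+/+ (0) and 1 in ATF7+/- livers (0), and 4 for the interaction between these labels (0). The slope on the proliferation level passed in 915 genes, in 375 to 1114 with 1 sample left out, in 406 in set A alone and in 2384 with each array centred on its median. The replicate block over all groups changed no call of the 6 genes. With it 0 of the 6 passed between genotype labels. The block within each label could not be fitted for those differences, since each block lies within 1 label. Restricting the mean diet difference to the groups compared was not run, since it uses all 6 groups. Only 4 of the 6 genes pass the filter at the 40th percentile and 2 at the 60th.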
